A study of Homo sapiens with 2 samples.

Results

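The outermost 5 Mb of 39 autosomal chromosome ends held 19180 of the 370863 distinct intervals that the authors' peak caller found for LSD2 in HepG2 cells. An interval belonged to an end zone when its midpoint lay within 5 Mb of the last peak of a chromosome, or of the first peak on chromosomes 1 to 12 and 16 to 20. The short arms of chromosomes 13, 14, 15, 21 and 22 were not part of the set. This gave 17 short-arm (p) and 22 long-arm (q) ends, named below by chromosome and arm, and each end was set against the same arm from 5 to 20 Mb further from its tip. All positions are on hg19, counted from 1.

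LSD2, the product of KDM1B, is a flavin-dependent enzyme that removes methyl groups from a lysine of histone H3 associated with active promoters, and it has been described along the bodies of transcribed genes. A chromosome ends in an array of telomeric repeats. Next to it lie subtelomeric blocks that are duplicated between many ends, and further in follows unique sequence that on many, though not all, arms is rich in genes and in G and C bases. Reads from the duplicated blocks are hard to place on 1 chromosome, so peak lists are least certain at the very tip.

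The study compared 2 libraries of HepG2, an aneuploid line from a human liver tumour. One was chromatin precipitated with a rabbit antiserum against recombinant LSD2, the other was input DNA that was not precipitated, and both came from cells in high-glucose medium with serum, with no further treatment. Each group had 1 library, so nothing below could be set against replicate error and no test is given. The library names in the file header also carry different dates, which cannot be told apart from the difference between them. Neighbouring ends and intervals come from that same pair of libraries and are not replicates. The list gives positions without heights, and the depth of the libraries is unknown, so fewer calls from less DNA or fewer placed reads cannot be told apart from less LSD2. Over the 22 autosomes the density was 134 peaks per Mb and the median width 173 bp.

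LSD2 peaks were sparser in the end zones than further in on most arms. The zones made up 7.24% of the searched autosomal sequence and held 5.32% of the autosomal peaks. Their density was 98.4 peaks per Mb, compared with 126 per Mb over the 73215 peaks of the inner segments and 140 per Mb in the remaining autosomal sequence. Peaks covered 2.25% of the sequence in the zones and 2.94% in the inner segments. Counted end by end, the ratio of zone to inner density had a median of 0.75, ran from 0.44 to 1.15, and had a mean of 0.79 ± 0.21 (SD over 39 ends). It was below 1 at 30 of the 39 ends, and 12 ends were at least 1.5 times below their inner segment.

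The same comparison made away from the tips gave a different distribution. Blocks of 5 Mb were used that lay more than 20 Mb from an end and had a further 15 Mb of the arm beyond them. There were 263 on 28 arms, each set against the 15 Mb next to it towards the centromere. Shorter arms, among them 17p, 18p, 20q and 22q, gave no such block. Among these blocks 45.2% were below their neighbours, and 1.52% were at least 1.5 times below, with a median ratio of 1.01. Of the 4 interior blocks that far below, 3 lay on 14q from 50 to 65 Mb from its end, and 1 lay on 5q. The zone was also sparser than each of its inner 5 Mb blocks at 25 of 39 ends, whereas 22.8% of interior blocks were sparser than each of their 3 neighbours. At 3 ends, 4q, 15q and 18p, the zone was denser than each of its inner blocks, of which 18p had only 2. Interior blocks denser than each of their neighbours also occurred on many arms, and their share was not counted here.

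**Figure D1:**
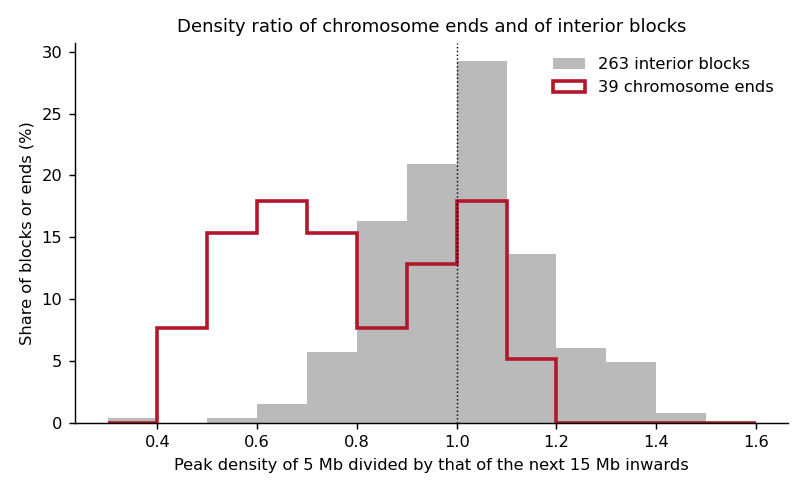
Share of 39 chromosome ends (red outline) and of 263 interior blocks of 5 Mb (grey) by the ratio of their peak density to that of the next 15 Mb inwards, in bins of 0.1. The ends reach from 0.44 to 1.15 with a median of 0.75, and the interior blocks centre on 1.01.

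Density was low throughout the zone, and the low stretch reached past its limit. In steps of 1 Mb, the median end held 97 peaks in the outermost step, 75 in the second, 95 in the third, 103 in the fourth, and 99 in the fifth. Relative to the inner density of the same end, these steps stood at 0.77, 0.64, 0.69, 0.82 and 0.83. The second step was thus the sparsest by this median, and it was the lowest of the 5 at 17 ends, against 7 ends for the outermost and 4 to 6 for each of the others. The outermost step held more peaks than the second at 24 ends and fewer at 15. Splits of that size also occurred far from the tip, at 24 and 14 ends for the step from 17 to 18 Mb against the next, and at 12 and 27 for the step from 8 to 9 Mb.

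Beyond the limit the next 4 steps still had medians of 0.82, 0.82, 0.90 and 0.87. The median first passed 1 in the step from 9 to 10 Mb, at 1.01, and the steps from 17 to 20 Mb stood at 1.18, 1.08 and 1.11. Since each end is divided by its own density from 5 to 20 Mb, values on both sides of 1 arise there by construction. The crossing therefore marks no point of recovery. Just inside the limit, from 4.5 to 5 Mb, the 39 ends together had 110.05 peaks per Mb. Just outside it, from 5 to 5.5 Mb, they had 110.26, with the inside lower at 21 ends and higher at 17. The boundary at 5 Mb therefore marks no step in the data. The outermost 100 kb held between 1 and 31 peaks at every end, at 92.6 per Mb over all ends. That none was empty follows from the definition of an end by its outermost peak. How close that peak lay to the telomere was not measured.

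**Figure D2:**
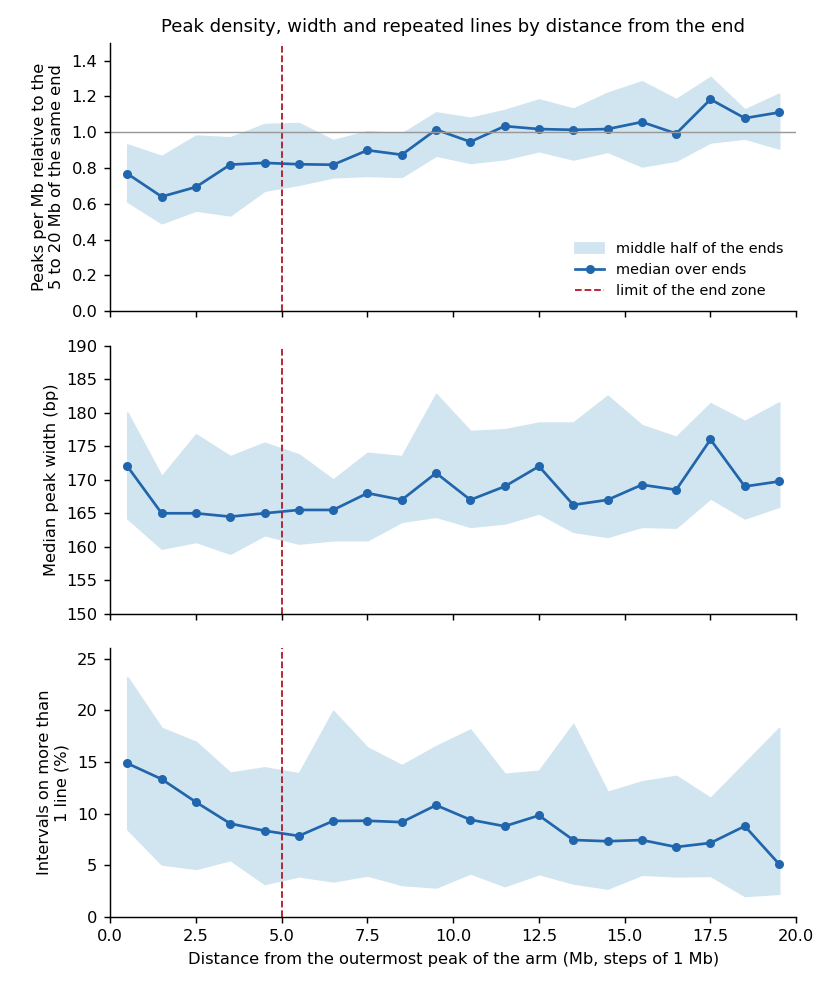
Median over chromosome ends (points) and interquartile range over the ends (band) of peak number relative to the inner segment, of median peak width in bp and of the percentage of intervals listed on more than 1 line, by distance from the outermost peak in steps of 1 Mb. Relative density is lowest in the second step, at 0.64, while width and repeated lines are highest or near highest in the outermost step.

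The 5 ends with the lowest ratio were 1p, 9q, 10q, 20q and 22q. At 1p, whose outermost peak starts at 62327, the zone had 46.6 peaks per Mb and the inner segment 107. Its 5 steps from the tip inwards held 35, 72, 36, 40 and 50 peaks. This was the sparsest zone of all, and every step was below the inner mean of 109 ± 43.3 peaks per step (SD over the inner steps). A peak-free stretch of 348 kb from 248222 to 595877 on chromosome 1 was the longest inside any zone. It was counted as searched sequence, and whether it holds unsequenced parts of the assembly was not checked.

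At 9q the zone had 53.0 peaks per Mb against 121, and its steps held 69, 66, 38, 29 and 63 peaks. The 9q zone ends at 141088485, and none of its steps reached the lowest inner step, which had 72. The same separation was found at 7p, 10q and 20q, so that 4 ends had every outer step below every inner one. At 10q the densities were 71.8 and 145 peaks per Mb, and the outer steps held 49, 71, 47, 103 and 89. At 20q they were 71.2 and 142, with 85, 56, 60, 74 and 81 peaks per step.

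At 22q the zone had 64.2 peaks per Mb and the inner segment 126, with a wider spread inside, at 126 ± 47.2 peaks per inner step. Its outer steps held 67, 42, 44, 83 and 85. Taken over all ends, 18 had every outer step below their inner mean, and none had every outer step above it. Neither this count nor that of the 4 ends with every outer step below every inner one was made for interior blocks. Whether they are unusual for 5 Mb of an arm is therefore not known. The sparsest step of any zone lay on 8q from 3 to 4 Mb, with 22 peaks. The 5 steps of 8q held 75, 55, 33, 22 and 129 peaks, so that its outer 4 steps were below the inner mean of 120 ± 32.4 and the fifth above it.

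At the other extreme were 18p, 4q, 17p, 15q and 6p. The 18p zone had 137 peaks per Mb and its inner segment 119. That segment was shortened to 10.4 Mb because the arm ends at the centromeric gap. The zone's steps held 137, 118, 197, 157 and 77 peaks, with the highest counts in the third step and in the one after it, and only the second and the fifth below the inner mean of 122 ± 39.5. At 4q the densities were 130 and 114, and the steps held 145, 87, 84, 152 and 182. There the second and the third step were low, as at most ends, while the rest exceeded the inner mean of 114 ± 18.8.

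At 17p, with 119 against 108 peaks per Mb, the steps were even, at 97, 128, 125, 120 and 125. At 15q, with 115 against 107, they ranged from 75 to 159. The 6p zone was the densest of the 39, with 179 peaks per Mb, but its inner segment was dense as well, at 168, and its steps held 163 to 188. The 14q zone was among the sparsest, as was its inner segment, with 57.6 and 58.5 peaks per Mb and a ratio of 0.99, although its outer 3 steps held only 30, 29 and 36. Over the 39 ends, zone and inner density were related with Spearman's rho = 0.46, as a description of ends that share 1 pair of libraries.

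**Figure D3:**
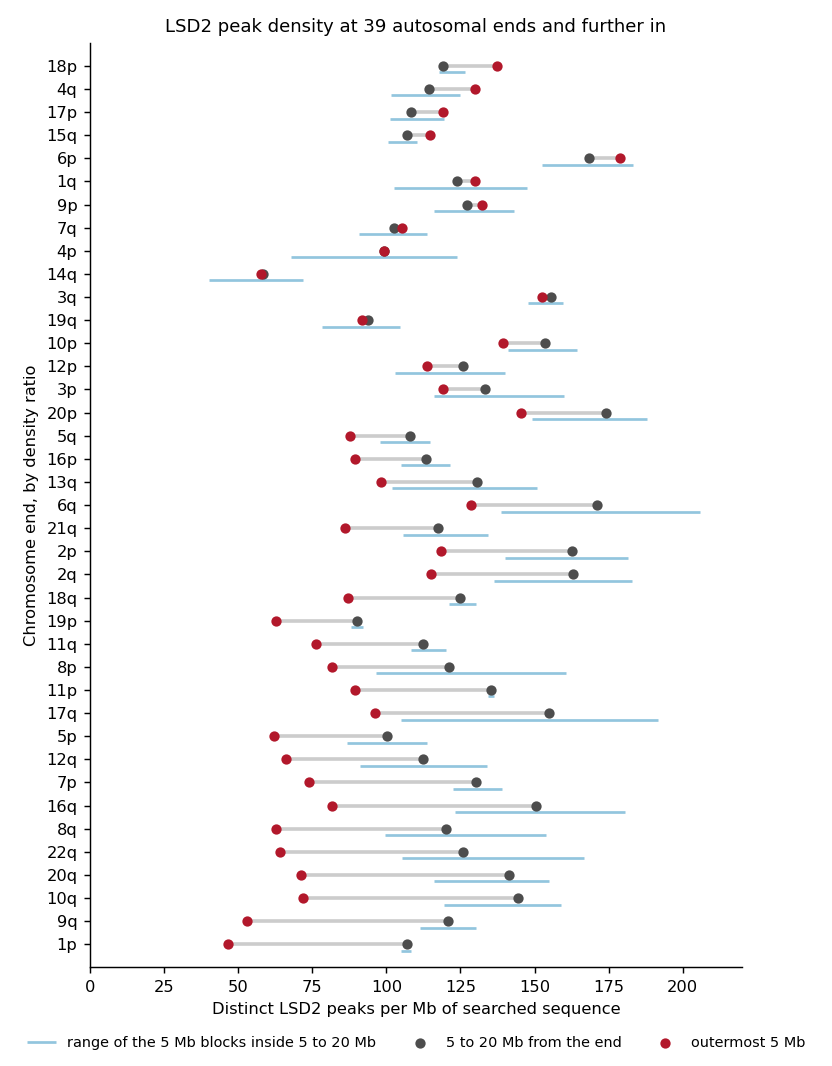
Peaks per Mb in the outermost 5 Mb (red) and from 5 to 20 Mb (grey) of each chromosome end, with the range of the inner 5 Mb blocks (blue line), ordered by the ratio. At 30 ends the red point lies to the left of the grey one, and at 25 it lies left of the whole blue line.

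**Figure D4:**
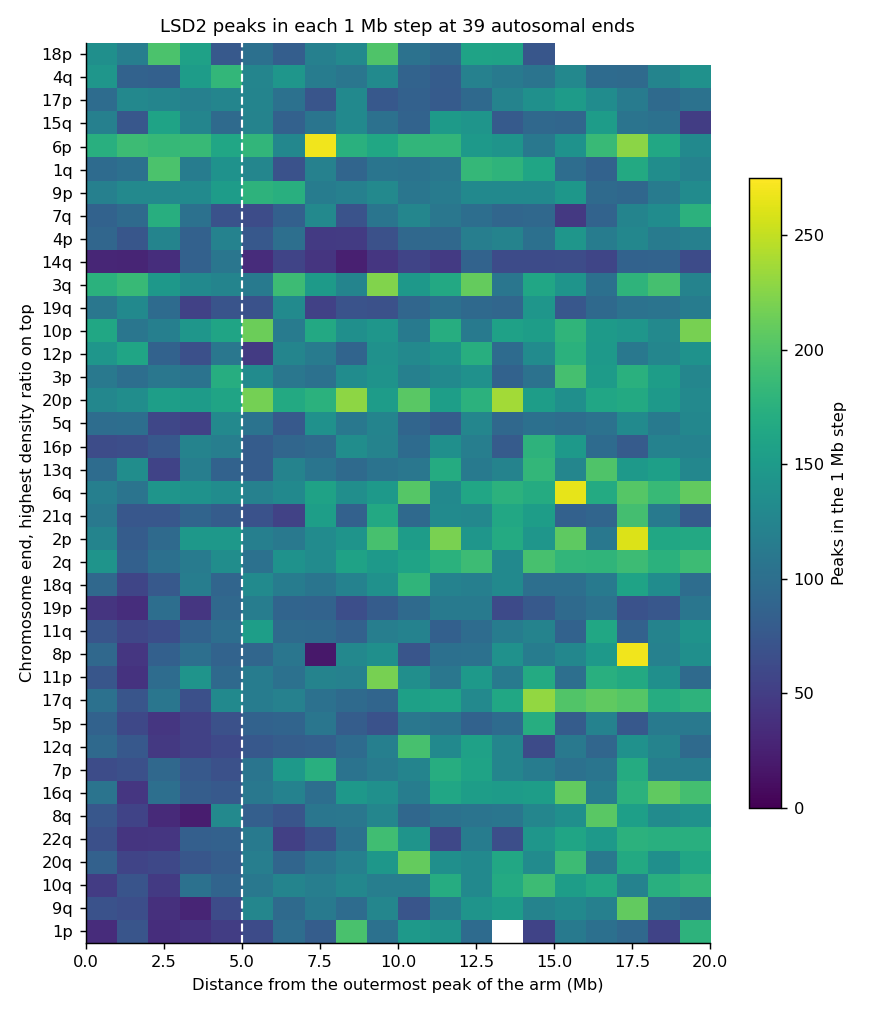
Number of LSD2 peaks in each 1 Mb step, by distance from the outermost peak, for 39 chromosome ends ordered by density ratio, with the limit at 5 Mb as a dashed line. White cells are steps not counted, past the end of the 18p arm and at a peak-free stretch of 1p, and the steps of 9q, 10q, 20q and 7p inside the limit are all below those outside it.

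Long-arm ends tended to lower values than short-arm ends, with wide overlap. The median ratio was 0.84 over the p ends, from 0.44 to 1.15, and 0.72 over the q ends, from 0.44 to 1.14. On the 17 chromosomes with both ends, the q ratio was the lower at 10 and the p ratio at 7. The direction thus varied from chromosome to chromosome. Chromosome 9 had 1.04 at 9p and 0.44 at 9q, whereas chromosome 1 had 0.44 at 1p and 1.05 at 1q. Both ends of chromosome 8 were low, at 0.67 on 8p and 0.52 on 8q, and both ends of chromosome 4 were not, at 1.001 and 1.14.

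Peaks in the zones were spaced more widely, and long gaps were more frequent there. Since fewer peaks on the same length leave longer gaps, this is in part another view of the lower density. The gap from one peak to the next had a pooled median of 5197 bp in the zones and 4404.5 bp in the inner segments. The ratio of the 2 medians at an end had a median of 1.21, from 0.78 at 4q to 2.36 at 9q. It was above 1 at 28 of 39 ends, against 50.2% of interior blocks. Gaps over 20 kb made up 13.4% of zone gaps (95% Wilson interval 12.95 to 13.9%, counting error only) and 8.66% of inner gaps (8.46 to 8.87%), and their share was higher in the zone at 30 ends, against 48.7% of interior blocks. At 1p this share was 34.5%, against 12.1% further in, and at 9q 29.5% against 9.38%.

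Over the zones as a whole, short gaps were somewhat rarer, and empty sequence was more frequent. Gaps under 1 kb made up 15.4% of zone gaps (14.9 to 15.9%) and 17.0% of inner gaps (16.7 to 17.2%), and were less frequent in the zone at 25 of 39 ends, against 51.7% of interior blocks. Of 1950 zone windows of 100 kb, 28 held no peak, or 1.44%, compared with 0.449% of 5796 inner windows. Of the 28 empty windows, 5 each lay on 1p, 8q and 14q and 2 on 19p, and 24 of the 39 ends had none. The median zone window held 9 peaks and the median inner window 12. Steps of 1 Mb with under 50 peaks made up 11.3% of the 195 zone steps and 1.73% of the 579 inner ones. At like peak number, short gaps were not rarer in the zones. Among steps with 75 to below 100 peaks, the median share of gaps under 1 kb was 12.436% in zone steps and 11.05% in inner steps. This share was higher in zone steps in every class of peak number that held any. The median gap was shorter there, at 6401.5 against 6931.8 bp, except with under 50 peaks, at 13837 against 12586 bp.

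Peak width differed little between zones and inner segments. The pooled median was 169 bp in the zones and 171 bp in the inner segments, with means of 229 ± 117 and 233 ± 117 bp (SD over peaks). The most frequent width class, from 140 to below 170 bp, held 49.2% of zone peaks (48.5 to 49.9%) and 48.0% of inner peaks (47.7 to 48.4%). Peaks of 400 bp or more made up 7.33% (6.97 to 7.71%) and 7.82% (7.63 to 8.01%). By end, the median difference in median width was -2.5 bp, from -15 bp at 2p and 2q to 16.5 bp at 5q. The zone was narrower at 24 ends, wider at 12 and equal at 3, while 51.3% of interior blocks were narrower than their neighbours.

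Ends that were not sparse had wider peaks than their inner segments. All 9 ends with a density ratio of 1 or more had a wider median in the zone. The differences were largest at 4p, with 176.5 against 163 bp, and at 15q, with 177.5 against 166 bp. They were smallest at 9p, with 168.5 against 167 bp, and at 1q and 6p, with 2 bp each. Among interior blocks with a ratio of 1 or more, 62.5% were wider than their neighbours. Of the 30 ends with a ratio under 1, the zone was narrower at 24, equal at 3 and wider at 3, namely 3q, 5q and 12p, while 70.6% of the interior blocks with a ratio under 1 were narrower. Denser segments also had wider peaks among the inner segments themselves (rho = 0.81 between inner density and inner width). Across the 39 ends the density ratio and the width difference had rho = 0.77, as a description. The 5q zone stood apart: its density ratio was 0.81, yet its median width was 180.5 bp against 164 bp, and 12.1% of its peaks reached 400 bp, against 5.81% further in.

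**Figure D5:**
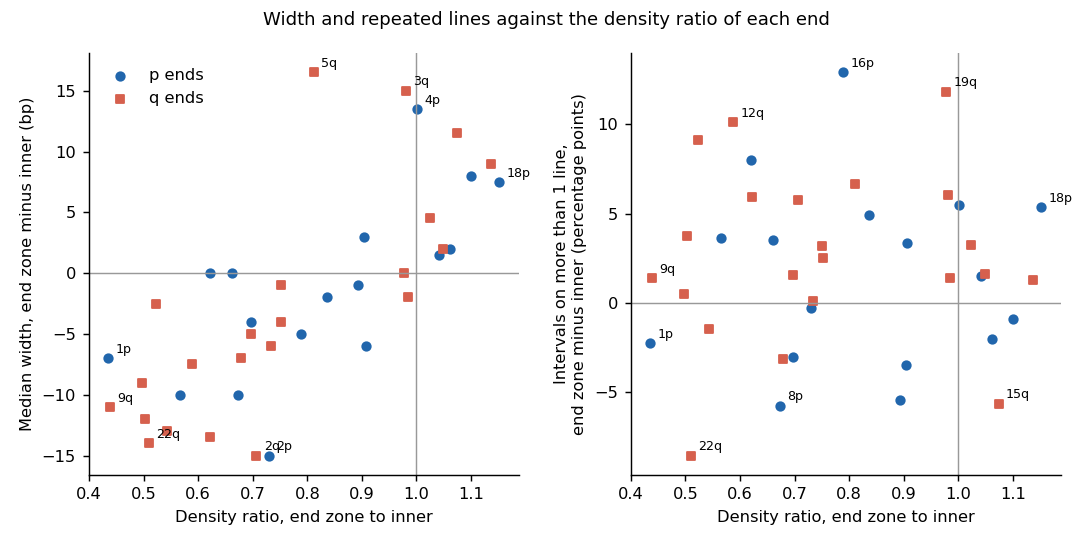
Difference between end zone and inner segment in median peak width (left, bp) and in the percentage of intervals on more than 1 line (right, percentage points), each against the density ratio of the end, for p ends (circles) and q ends (squares). Width differences rise with the ratio, with 5q as the highest point, while the differences in repeated lines show no such order.

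At like peak number, zones and inner segments had nearly like widths. Among 1 Mb steps with 75 to below 100 peaks, the median of the median widths was 163.75 bp in 52 zone steps and 163 bp in 102 inner steps. With 125 to below 150 peaks it was 174 bp in 29 zone steps and 170 bp in 121 inner steps, and with 150 to below 200 peaks 181.75 bp in 22 and 178.75 bp in 122. With 100 to below 125 peaks the median was 168.75 bp in zone steps and 166.5 bp in inner steps, and with 50 to below 75 peaks 162 bp in both. Zone steps were narrower only with under 50 peaks, at 158 against 159.75 bp, although the median difference by end was -2.5 bp. The interquartile ranges of the steps overlapped in each of these classes. No zone step reached 200 peaks, while 28 inner steps did.

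The outermost step had wider peaks than the other zone steps, also at like peak number in 5 of 6 classes. With 75 to below 100 peaks the median was 165.5 bp in 12 outermost steps and 161.5 bp in 40 other zone steps. With 100 to below 125 it was 178 bp in 9 and 167 bp in 25, whereas with 50 to below 75 peaks it was 161 bp in 6 and 162 bp in 30. These classes hold few outermost steps, at most 12. Over all ends the median width of the outermost step over ends was 172 bp, against 165 bp in the step after it, and it was wider than that step at 28 ends and narrower at 10. In the 18 other pairs of neighbouring steps, the outer one was wider at 10 to 25 ends, the lowest being 10 wider against 27 narrower. The tip of 1p was an example, with 35 peaks in the outermost 1 Mb at a median width of 202 bp. The next step of 1p had 72 peaks at 167 bp.

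Some compact clusters of peaks lay inside the zones despite the lower mean. The densest 100 kb was on 11p from 3720732 to 3820731, where 47 peaks had a median of 340 bp, although the 11p zone as a whole had a density ratio of 0.66. Windows with 44 peaks each lay on 1q from 247020129 to 247120128, on 6q from 168241600 to 168341599 and on 18p from 2709981 to 2809980. The fifth, on 2q from 242182545 to 242282544, had 41. Their median widths were 210.5, 289, 263.5 and 302 bp, all above the 169 bp of zone peaks in general.

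Runs of 15 or more peaks, each within 2 kb of the next, numbered 4 in the zones. The longest was on 10p from 1034490 to 1052494, a stretch of 18.0 kb of which its 17 peaks, at a median of 451 bp each, took up 35.6%. The others had 15 peaks each, on 11p from 3743194 to 3763172, on 16p from 4916725 to 4933383 and on 2q from 242190626 to 242205936. Per 100 Mb this came to 2.05 runs, compared with 1.72 in the inner segments, which had 10. Shorter runs of 8 or more peaks numbered 31 and held 1.58% of zone peaks, against 1.47% of inner peaks in 104 runs. Windows of 100 kb with 30 or more peaks were rarer in the zones, at 22 or 1.13%, than in the inner segments, at 139 or 2.40%, where the densest held 61 peaks.

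Very wide peaks were few in the zones, as in the inner segments, and lay on several ends. Of the 19180 peaks, 23 reached 1000 bp, or 0.120%, against 0.0901% in the inner segments, and 6 of them were on 6p and 3 on 5q. The widest, of 1847 bp, lay on 10q from 135499825 to 135501671, only 20.7 kb from the outermost peak of that arm. Second was a peak of 1721 bp on 1p from 4328248 to 4329968, in the sparsest zone. Peaks of 1621 and 1308 bp on 6p, from 1267449 and 1231115, were neighbours among the wide peaks, 1175 and 1139 kb from the tip.

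A peak of 1590 bp on 5q from 180633490 to 180635079 was 90.7 kb from the tip, and a further one of 1167 bp started at 180615188. On 21q, peaks of 1403 and 1274 bp followed each other directly, from 44883484 to 44884886 and from 44884947 to 44886220, and both were listed on 2 lines. The remaining ones of the 10 widest were on 3q (1454 bp from 194146761), on 6q (1221 bp from 166793929) and on 19p (1190 bp from 2102819). None of the 10 fell in the runs described above.

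Zone peaks were listed on more than 1 line more often than inner peaks. The file repeats some intervals on identical lines, for a reason not given in the sources used here, and the 19180 zone intervals stood on 22010 lines. On more than 1 line were 12.9% of them (12.4 to 13.4%), compared with 10.7% of inner intervals (10.4 to 10.9%) and 9.97% in the rest of the autosomes. The difference at an end had a median of 1.58 percentage points, from -8.58 at 22q to 12.9 at 16p. With end zones of 2 Mb this median was 3.655 points, and with an inner segment from 5 to 10 Mb it was 2.431. It was lower, at 1.158, without the outermost 500 kb, at 1.185 with the inner segment taken to the end of the arm, and at 1.349 with end zones of 10 Mb. The difference was positive at 27 of 39 ends, while 46.8% of interior blocks were above their neighbours. At 14 ends the Wilson intervals of zone and inner share were apart with the zone higher, and at 4 ends with the zone lower. Among interior blocks the same intervals were apart in 26.6% with the block higher and in 28.5% with the block lower. Because repeated intervals lie next to each other, intervals that treat them as independent are too narrow.

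The share was highest at 19q, where 40.1% of 459 intervals were repeated (35.7 to 44.6%), against 28.2% further in (26.0 to 30.7%). At 16p it was 29.98% of 447 intervals (25.9 to 34.4%), against 17.1% (15.3 to 18.9%). The next highest was 19p, at 20.7%, but its inner segment had 23.8%. Lowest was 8p with 3.68% against 9.47%, and 22q followed with 5.30% against 13.9%. Ends of the same chromosome could thus differ, as 8q had 13.4% against 4.27%. Unlike width, the difference in repeated lines did not follow the density ratio (rho = -0.0045 over 39 ends, as a description).

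Repeated lines were most frequent towards the tip, and they came in blocks in the zones as in the inner segments. Over ends, the median share was 14.9% in the outermost 1 Mb step, then 13.3, 11.1, 9.03 and 8.33%, and it stayed between 5.11 and 10.8% from 5 to 20 Mb. The outermost step had a higher share than the second at 24 ends and a lower one at 15. A split of like size, 25 and 14 ends, occurred for the step from 7 to 8 Mb against the next. After a repeated zone interval the next one was repeated in 61.5% of cases, compared with 5.71% after an interval on 1 line. In the inner segments these shares were 67.4% and 3.89%. In the window on 18p from 2709981 to 2809980, 43 of 44 intervals were repeated. A window on 11p from 2620732 to 2720731 had 23 of 25, and 1 on 2q from 238882545 to 238982544 had 21 of 23.

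Most repeated intervals stood on 2 lines. In the zones 16705 intervals stood on 1 line, 2171 on 2, 265 on 3, 31 on 4 and 7 on 5. A single interval stood on 9 lines, on 2q from 239992348 to 239992713. Those on 5 lines were 3 on 19q, 2 on 16p and 1 each on 9p and 14q. The median width was 176 bp for repeated zone intervals and 168 bp for those on 1 line, and the inner segments had 175 and 171 bp.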

How the data were processed

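LSD2 ChIP (1 library) and input (1 library) of HepG2 were grouped by source name. The submitters' processing notes name BWA and hg19. Reads were trimmed and stripped of duplicates, and MACS compared LSD2 with input, per the file headers. Its settings there are read and fragment lengths of 120 bp, 2700 Mb as genome size, 1e-05 as the p cutoff, 32 as the enrichment factor and local bias detection. The deposited values used are peak starts and ends, in bases. Tool versions: not given in the sources used here.

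Identical lines were counted once. Searched length left out peak-free stretches over 500 kb, which shortened the inner segment of 1p to 14.4 Mb. An arm ended at the first stretch over 1 Mb, which shortened the inner segment of 18p to 10.4 Mb. Peak-free stretches up to 500 kb stayed in the searched length, and whether they hold unsequenced parts of the assembly was not checked. Distances run from the outermost peak, not from the telomere. Interior blocks overlap in their reference sequence. Computation used Python 3.11.15, numpy 2.4.6, pandas 2.3.3 and scipy 1.17.1. The procedure was tested on simulated data. The regions and lists were chosen with earlier results of these data known, and the comparison of neighbouring steps, of like peak numbers, of shorter runs and of gap classes, repeated shares and width by density in interior blocks was added after seeing the data. Named by rule were the 5 highest and 5 lowest ends by density ratio, the 10 widest peaks, those on most lines, the 5 densest 100 kb windows and all runs of 15 or more peaks. Other ends, such as 8q, 14q and 1q, were named after their values were seen. Genes and sequences are not named, because no annotation or genome of hg19 was used here.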

Additional observations from a re-analysis of the deposited data

How the results depend on the processing

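Across 14 other settings (end zones of 2 or 10 Mb, other inner segments, long stretches kept, wider peaks only, merging, membership by any base, pooling, chromosomes or the outermost 500 kb left out, every line counted), the median density ratio ran from 0.66 to 0.85 around 0.75, and 24 to 33 ends were sparser, the 24 out of 33 ends. Using only peaks of 387 bp or more, the widest decile, changed most. There the density ratio was 0.6585, the gap ratio 1.508 and the difference in repeated lines 4.859 percentage points, and the width difference turned from -2.5 to 1 bp. Selecting on width removes most of the width range by construction, and the cause of the other changes was not tested. These values lay outside the 95% interval of the median over ends, which was 0.67 to 0.91 for density. All other medians stayed inside theirs with the same direction, although the interval for width, -7 to 0 bp, includes no difference. The interval for repeated lines, 0.1076 to 3.74 percentage points, came close to no difference. These intervals treat the ends as independent, although the ends share the same pair of libraries, and the settings reuse the same peaks. The intervals are therefore only a yardstick for the settings and measure no replicate error. Counting every line does not apply to gaps or repeated shares, and pooling gives no count of ends. No paired analysis was possible because there is a single library of either kind. With depth unknown, a stretch without peaks cannot be told from one with too few reads to be called.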
